A study of Mus musculus with 3 samples.

Results

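The Hox genes were described across the nuclei of the mouse abdominal aorta from single-nucleus RNA sequencing. The members were every gene whose symbol is Hox, then one of the letters a, b, c or d, then digits only, which gave 39 of the 33696 genes in the count tables. They comprised 11 Hoxa, 10 Hoxb, 9 Hoxc and 9 Hoxd genes, and the antisense and other noncoding transcripts of the same loci were kept apart. All aortae came from ApoE-/- mice of the C57Bl/6 strain, which lack apolipoprotein E and develop atherosclerosis, and every group received the high fat diet. The groups were mice kept in room air, smoke-exposed mice with no abdominal aortic aneurysm, and smoke-exposed mice with an aneurysm, each after 20 weeks. They are called the room air, smoke and aneurysm libraries here. Each group was 1 library, and the sources used here do not give how many animals it held, their age and sex, or which stretch of the abdominal aorta was taken. No test between groups was therefore possible, and the intervals below are 95% intervals that cover counting error only.

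Hox genes encode homeodomain transcription factors that lie in the Hoxa, Hoxb, Hoxc and Hoxd clusters. Along each cluster the genes are numbered by paralog group, and low numbers are expressed from more anterior positions of the embryo than high numbers, so that the set of active Hox genes marks a position along the body axis. Adult vascular smooth muscle, endothelium, fibroblasts and fat keep part of this code. Hox proteins bind DNA together with Pbx and Meis proteins, and Polycomb and Trithorax complexes hold their clusters silent or open.

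After filtering, 30730 of 35396 barcodes were kept, 11022 in the room air, 14001 in the smoke and 5707 in the aneurysm library. The median nucleus held 4058, 6225 and 1443 unique molecular identifiers (UMIs, counted RNA molecules), so the aneurysm library was the shallowest and its values carry the widest intervals. Hox genes accounted for 29444, 38490 and 8247 UMIs. The libraries shared at most 46 barcodes with each other. The nuclei formed 24 clusters when Hox genes were left out of the clustering, and 6 clusters stayed unnamed. Classes named from marker genes were checked against their defining markers. Myh11, the smooth muscle myosin, was at 2448, 2512 and 3619 CPM (counts per 1000000 UMIs) in the smooth muscle-like nuclei and at no more than 58.8 CPM in the fibroblast-like and the endothelial-like class. The endothelial adhesion gene Pecam1 was at 1768, 1939 and 1840.5 CPM in the endothelial-like nuclei. The 3 libraries, in the order room air, smoke and aneurysm, held 334, 424 and 130 smooth muscle-like, 473, 653 and 728 fibroblast-like, 1825, 1994 and 601 endothelial-like, 28, 183 and 1231 adipocyte-like and 4009, 4608 and 676 macrophage-like nuclei. Nuclei had been collected on anti-nucleus beads, which can set such shares. All values below keep this order of libraries unless another is given.

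The wall cells carried most Hox RNA. Summed over the members, the level was 1006, 940.4 and 932 CPM in smooth muscle-like nuclei. It was 709, 635 and 781 CPM in fibroblast-like nuclei and 985, 806 and 1073 CPM in endothelial-like nuclei. Adipocyte-like nuclei had 373 CPM in the smoke and 393 CPM in the aneurysm library, and their 28 nuclei in the room air library were too few to compare. Macrophage-like nuclei had 43.4, 31.7 and 74.7 CPM. In each library the wall classes thus stood above the macrophages, with lowest ratios of 12.5 for smooth muscle-like, 10.5 for fibroblast-like and 14.4 for endothelial-like nuclei, all in the aneurysm library.

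Of the 39 members, 27 had 50 or more UMIs over all kept nuclei and 7 had between 1 and 49. These 7 were Hoxa11, Hoxa13, Hoxb1, Hoxb13, Hoxc11, Hoxc13 and Hoxd10. No UMI was counted for Hoxc12, Hoxd1, Hoxd11, Hoxd12 or Hoxd13. The detected code therefore reached from paralog group 1 to group 10, and the members that pattern the caudal trunk, limbs and genitalia, groups 11 to 13, were each below 50 UMIs. Hoxa10 was at 10.6, 15.2 and 6.26 CPM in smooth muscle-like nuclei and Hoxc10 at 17.9, 16.3 and 9.38 CPM. In the same nuclei Hoxa11 had no UMI and Hoxc11 had 1, 2 and 1 UMIs.

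**Figure D1:**
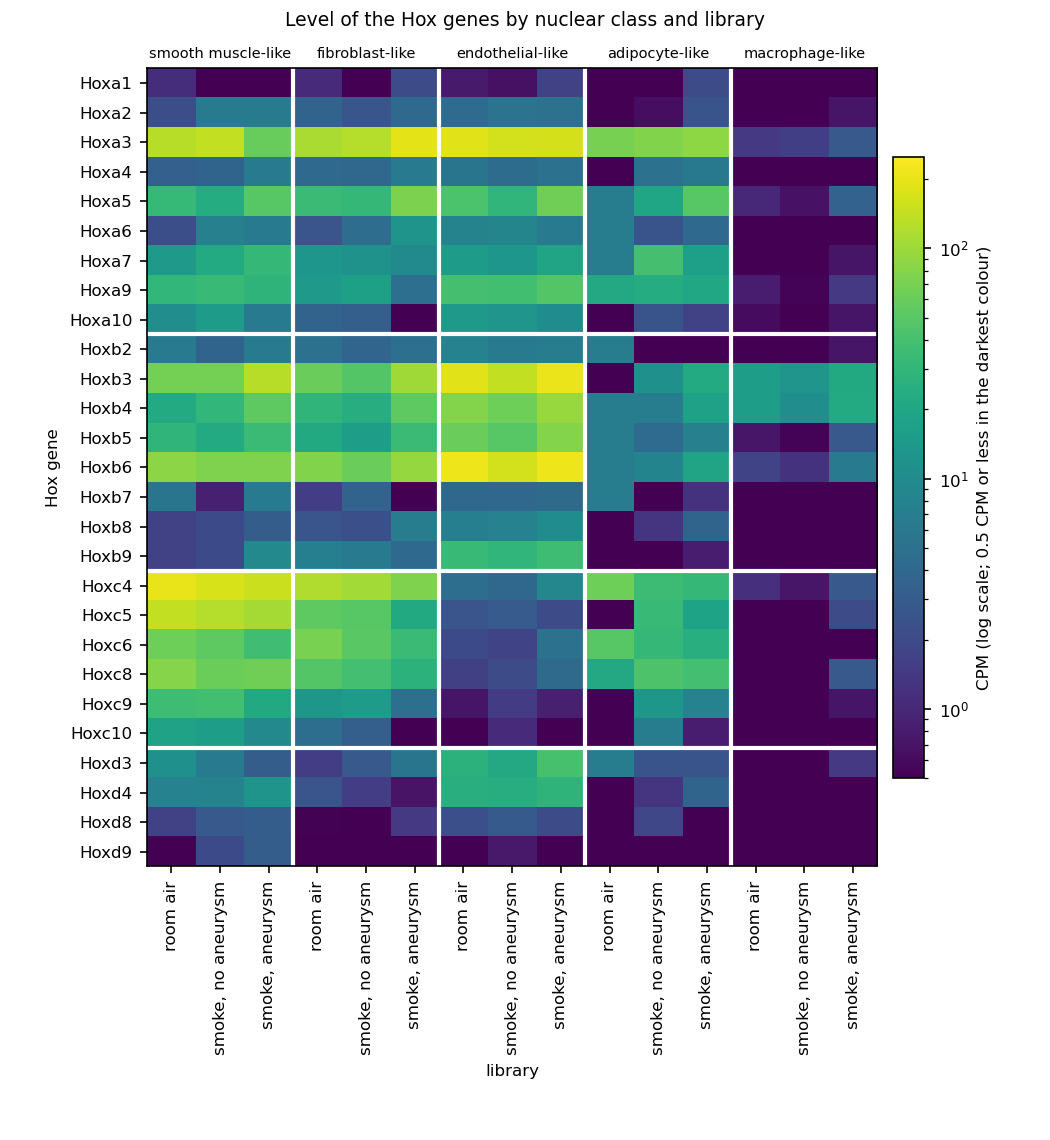
Level of the 27 Hox genes with 50 or more UMIs (rows, grouped by Hox cluster) in 5 nuclear classes, each in the room air, smoke and aneurysm libraries (columns), as CPM of summed UMIs on a log colour scale. Hoxc4 to Hoxc10 are bright in smooth muscle-like and fibroblast-like nuclei and dark in endothelial-like nuclei, where Hoxb9, Hoxd3 and Hoxd4 are brighter, and macrophage-like nuclei show little but Hoxb3 and Hoxb4.

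The reference annotation limits how finely single genes can be separated. In GENCODE M21, where all 39 members were found, 11 overlap another member on the same strand and 14 overlap a gene on the opposite strand. Hoxc5 is annotated over 50.0 kb that include Hoxc6, Hoxc8, Hoxc9 and Hoxc10, and Hoxa3 over 44.3 kb that include Hoxa4, Hoxa5 and Hoxa6. Hoxd3 spans 36.5 kb and overlaps Hoxd4. The sources used here do not give how reads in these shared stretches, on either strand or in introns, were assigned. The values of these members are therefore uncertain beside those of their neighbours. Levels of different genes are compared below only per kilobase of annotated span.

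Smooth muscle-like and endothelial-like nuclei used different Hox clusters. Hoxc genes made up 53.9%, 49.4% and 43.0% of the Hox UMIs of smooth muscle-like nuclei and 1.21%, 1.67% and 2.03% of those of endothelial-like nuclei. Hoxb genes made up 60.5%, 58.1% and 60.8% in endothelial-like nuclei, against 21.8%, 21.7% and 33.9% in smooth muscle-like nuclei. The exact intervals of the Hoxc shares of the 2 classes do not overlap in any library. Fibroblast-like nuclei resembled smooth muscle-like nuclei in the room air and smoke libraries, with Hoxc shares of 43.7% and 41.7%, and had 21.1% in the aneurysm library.

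**Figure D2:**
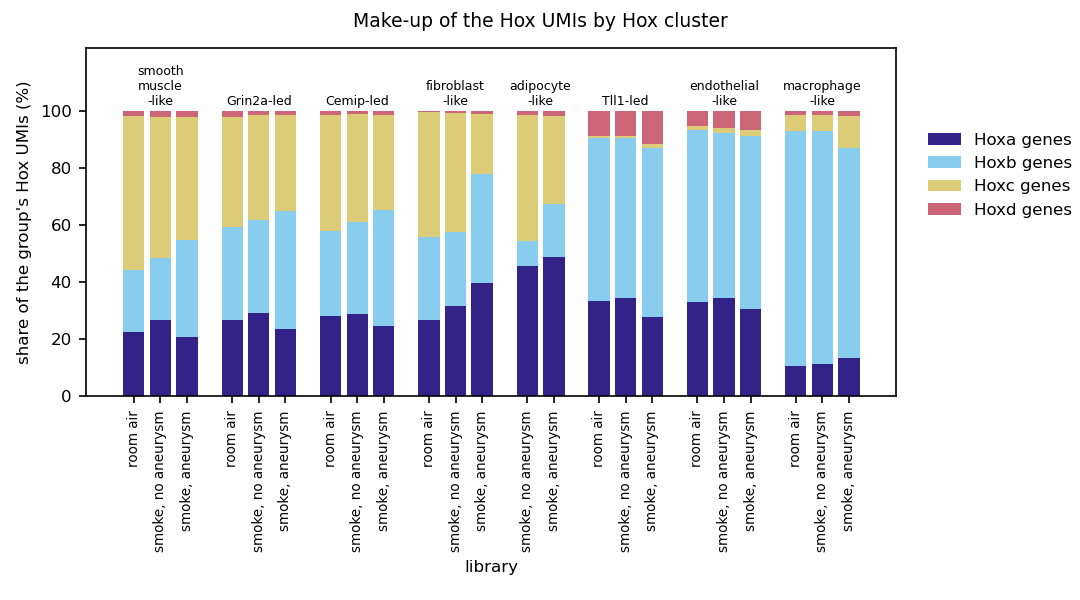
Share of Hox UMIs (percent, bars stacked to 100) from the Hoxa, Hoxb, Hoxc and Hoxd clusters in each nuclear class or cluster and library. Hoxc genes hold 43.0% to 53.9% in smooth muscle-like nuclei and 1.21% to 2.03% in endothelial-like nuclei, and the Tll1-led cluster also has low Hoxc shares.

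Of 17 members with enough UMIs in every library to compare these classes, 4 were at least 1.5-fold higher in smooth muscle-like than in endothelial-like nuclei in each of the 3 libraries. Of all 9040 genes measured alike, 9.04% were. The 4 were Hoxc4, Hoxc5, Hoxc6 and Hoxc8. Another 8 of the 17 were lower in each library, where 16.3% of all genes were. Those 8 were Hoxb3, Hoxb4, Hoxb5, Hoxb6, Hoxb8, Hoxb9, Hoxd3 and Hoxd4. No Hoxa gene passed in either direction in all 3 libraries.

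Hoxc4, an anterior-central member, had 202, 171 and 153 CPM in smooth muscle-like nuclei and 4.67, 4.02 and 8.97 CPM in endothelial-like nuclei. The ratio was 43.2 (33.5 to 56.4), 42.5 (33.6 to 54.5) and, in the aneurysm library, 17.1 with a lower bound of 10.1. Hoxc8, which patterns the brachial and thoracic levels of the embryo, had 81.0, 61.8 and 65.7 CPM against 1.62, 2.14 and 4.27 CPM. In both genes every smooth muscle-like value was above every endothelial-like value by more than 10 times. After each nucleus was thinned to 1000 UMIs, 32.5%, 32.9% and 24.2% of smooth muscle-like nuclei kept a Hoxc UMI. The same share was 1.37%, 1.32% and 2.75% in endothelial-like nuclei, and 0.251%, 0.282% and 0.992% in macrophage-like nuclei. Before thinning, the shares for smooth muscle-like nuclei were 65.6%, 67.5% and 38.5%, at median depths of 3374, 6221 and 1450.0 UMIs, and those for macrophage-like nuclei 1.72%, 1.84% and 1.63%, at 5585, 8734 and 1546 UMIs. Thinning left out 42, 20 and 35 smooth muscle-like nuclei that held fewer UMIs. The low endothelial Hoxc share in the room air and smoke libraries was still above that of the macrophages, whose exact intervals reached 0.462% and 0.482%. In these 2 libraries the smooth muscle markers summed to 257 and 362 CPM in endothelial-like and to 38.6 and 44.7 CPM in macrophage-like nuclei. They summed to 10607 and 10220.4 CPM in smooth muscle-like nuclei. The part of smooth muscle RNA in the endothelial Hoxc share was not tested.

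The members higher in endothelial-like nuclei were Hoxb and Hoxd genes, from Hoxb3 to Hoxb9. Hoxb9, a thoracic-level gene, had 33.0, 29.8 and 35.9 CPM in endothelial-like nuclei and 1.68, 2.0 and 9.38 CPM in smooth muscle-like nuclei. Hoxd3, which raises integrin expression in cultured human endothelial cells, had 26.8, 21.4 and 41.0 CPM against 11.2, 6.29 and 3.13 CPM. Hoxd4, a hindbrain and cervical gene, had 25.2, 24.0 and 28.6 CPM against 7.82, 8.01 and 12.5 CPM. All of these were higher in endothelial-like nuclei in every library, although the aneurysm values of smooth muscle-like nuclei rest on 3, 1 and 4 UMIs. Hoxb5, known to act on the endothelial receptor gene Kdr, had 59.7, 50.3 and 79.4 CPM in endothelial-like and 29.0, 22.3 and 34.4 CPM in smooth muscle-like nuclei.

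Per kilobase of span the leading members also differed. Hoxc8 had the highest values in smooth muscle-like nuclei, with 23.1, 17.7 and 18.8 CPM per kb. Hoxa5 was close to it in the aneurysm library, at 17.7 CPM per kb. Whether UMIs scale with the annotated span was not tested. In endothelial-like nuclei Hoxb4 had 23.5, 18.7 and 28.2, Hoxb5 21.4, 18.0 and 28.5, and Hoxb6 23.7, 18.2 and 23.5 CPM per kb. These Hoxb values differ less from each other than each does between libraries, so no order among them is given.

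The members of paralog group 4 show the split within 1 group of near relatives. Hoxb4 had 79.2, 62.9 and 95.2 CPM in endothelial-like nuclei and 22.3, 30.3 and 53.2 CPM in smooth muscle-like nuclei. Hoxc4 had the reverse order and Hoxd4 the order of Hoxb4, as given above. Hoxa4 was low in both, at 5.57, 4.52 and 5.13 CPM against 3.35, 3.72 and 6.26 CPM. Their promoters are shown because the genes are paralogs with opposite class patterns, together with those of Hoxa5 and Hoxa9, which differed between libraries in opposite directions in fibroblast-like nuclei. The sequences run 5′ to 3′ on the strand of the gene, from 250 bases before to 50 bases after its start, and come from RefSeq on build GRCm38.p6. Hoxb4 lies at chr11:96318017-96318316 on the plus strand, Hoxc4 at chr15:103034145-103034444 on the plus strand and Hoxd4 at chr2:74721728-74722027 on the plus strand. Hoxa5 lies at chr6:52204538-52204837 and Hoxa9 at chr6:52227321-52227620, both on the minus strand. Capitals mark matches to CCAAT and TATAAA, which read ATTGG and TTTATA where they lie on the opposite strand.
Hoxb4: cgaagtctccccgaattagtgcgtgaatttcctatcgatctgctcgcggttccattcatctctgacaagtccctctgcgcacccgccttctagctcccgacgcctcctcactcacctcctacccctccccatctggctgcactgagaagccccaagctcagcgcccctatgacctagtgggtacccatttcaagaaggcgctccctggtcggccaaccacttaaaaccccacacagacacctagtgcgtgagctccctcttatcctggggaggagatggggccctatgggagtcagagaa
Hoxc4: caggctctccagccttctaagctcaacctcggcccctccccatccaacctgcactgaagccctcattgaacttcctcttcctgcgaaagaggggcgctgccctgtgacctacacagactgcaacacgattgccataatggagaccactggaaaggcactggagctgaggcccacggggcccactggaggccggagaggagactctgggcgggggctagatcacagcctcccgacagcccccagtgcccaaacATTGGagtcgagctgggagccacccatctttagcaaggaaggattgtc
Hoxd4: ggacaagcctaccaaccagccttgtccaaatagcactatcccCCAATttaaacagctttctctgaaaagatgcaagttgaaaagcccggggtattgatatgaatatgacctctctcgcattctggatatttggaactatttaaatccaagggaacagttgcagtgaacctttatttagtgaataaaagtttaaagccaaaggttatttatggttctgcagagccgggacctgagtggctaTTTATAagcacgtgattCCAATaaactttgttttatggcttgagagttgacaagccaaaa
Hoxa5: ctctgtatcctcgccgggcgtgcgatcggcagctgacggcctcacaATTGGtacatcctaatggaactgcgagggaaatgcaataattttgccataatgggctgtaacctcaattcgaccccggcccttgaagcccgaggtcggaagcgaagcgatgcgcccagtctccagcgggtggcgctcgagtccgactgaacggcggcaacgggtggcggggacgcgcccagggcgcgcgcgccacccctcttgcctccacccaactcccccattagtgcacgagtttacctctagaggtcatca
Hoxa9: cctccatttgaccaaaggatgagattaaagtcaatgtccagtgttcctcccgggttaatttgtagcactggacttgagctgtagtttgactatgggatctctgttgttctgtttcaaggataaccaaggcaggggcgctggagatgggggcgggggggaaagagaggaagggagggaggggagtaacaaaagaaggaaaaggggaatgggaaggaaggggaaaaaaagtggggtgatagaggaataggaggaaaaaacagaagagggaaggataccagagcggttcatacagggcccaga

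The letters searched on both strands were TGACAG, a Meis motif, TGATNNAT, a Pbx and Hox motif, TAATTA, a homeodomain motif, CCAAT and TATAAA. No matches of different motifs overlapped in the printed promoters. Hoxd4 held CCAAT at 2 places and TATAAA at 1 place. Hoxc4 and Hoxa5 each held CCAAT once, and Hoxb4 and Hoxa9 held no match to any of the 5 motifs. CCAAT occurs in 37.4% and TATAAA in 13.6% of the 32851 promoters of this length. Among the 24 Hox promoters in the table, which cover 22 members, CCAAT occurs in 62.5% and TATAAA in 16.7%. TGACAG, TGATNNAT and TAATTA occur in 19.2%, 8.85% and 5.29% of all promoters and in 8.33%, 16.7% and 8.33% of the Hox promoters. The Hoxd4 promoter had 39.7% G and C, below the 58.0% of Hoxb4 and 60.3% of Hoxc4, and the median over all promoters was 52.7%. These matches describe the windows only.

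Fibroblast-like nuclei shared the Hoxc genes with smooth muscle-like nuclei but at lower levels for part of them. Of 11 members measured in every library, Hoxc4, Hoxc5 and Hoxc8 were at least 1.5-fold higher in smooth muscle-like nuclei in each, where 7.21% of all genes were, and none was lower, where 13.5% of all genes were. Hoxc5 had 141, 124 and 109 CPM in smooth muscle-like nuclei and 53.5, 49.9 and 21.6 CPM in fibroblast-like nuclei. Hoxc6, a cervical to thoracic gene, had 63.7, 53.2 and 37.5 CPM against 71.7, 50.4 and 34.9 CPM, and these ranges overlap. Against endothelial-like nuclei, 4 of 20 members were higher in fibroblast-like nuclei in every library and 9 were lower, where 13.4% and 12.3% of all genes were. The 4 were Hoxc4, Hoxc5, Hoxc6 and Hoxc8. The 9 were Hoxa9, Hoxa10, Hoxb3, Hoxb4, Hoxb5, Hoxb6, Hoxb9, Hoxd3 and Hoxd4. Hoxd4 had 2.6, 1.53 and 0.698 CPM in fibroblast-like nuclei.

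The highest paralog number at 5 CPM or more, with at least 10 UMIs in at least 3 nuclei, gave the caudal end of each cluster's code. For Hoxa it was 10 in endothelial-like nuclei of every library and in smooth muscle-like nuclei of the room air and smoke libraries, and 9 in fibroblast-like nuclei of these 2 libraries. For Hoxb it was 9 in endothelial-like nuclei of every library. It was 7, 6 and 6 in smooth muscle-like nuclei. In fibroblast-like nuclei it was 9, 9 and 8, and 6 in every library at a level of 10 CPM. For Hoxc it was 10 in smooth muscle-like and 9 in fibroblast-like nuclei of the room air and smoke libraries. For Hoxd it was 4 in endothelial-like nuclei of every library, and no Hoxd gene reached the level in fibroblast-like nuclei. In the aneurysm library the limits of smooth muscle-like nuclei were 7 for Hoxa and 8 for Hoxc. In its 130 nuclei 3 UMIs already make 9.38 CPM, so the minimum of 10 UMIs and not the 5 CPM sets these limits. By CPM alone, without the minimum of 10 UMIs, 16 members in the smooth muscle-like class stood at 5 CPM or more in every library. The same count was 11 in the fibroblast-like and 15 in the endothelial-like class. Library by library it was 19, 19 and 22 in smooth muscle-like nuclei, the most in the shallow aneurysm library. The counts are therefore not compared between classes.

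Large unnamed clusters also carried Hoxc genes. The Grin2a-led cluster, with 791, 914 and 815 nuclei, expressed the fibroblast receptor gene Pdgfra at 284, 291 and 269 CPM and Myh11 at 154, 246 and 148 CPM, and was given no cell type. Its summed Hox level was 900.2, 698 and 803 CPM, with Hoxc shares of 38.7%, 36.6% and 33.7%. Of 15 members compared with smooth muscle-like nuclei, Hoxc5 alone was lower in every library and none was higher, where 6.08% and 9.23% of all genes were. Of 16 members compared with fibroblast-like nuclei none was higher or lower in every library, where 7.45% and 9.69% of all genes were. The Cemip-led cluster, which expressed Myh11 at 1308, 1341 and 2017 CPM, had Hoxc shares of 40.7%, 38.0% and 33.2%. Its 15 shared members did not pass against the Grin2a-led cluster in either direction in every library, where 4.17% of all genes were higher and 7.22% lower.

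Endothelial clusters differed in summed Hox level and in single members. The unnamed Tll1-led cluster, which scored for both endothelial and lymphatic endothelial markers and had Pecam1 at 1263, 1480.3 and 1416 CPM, had low Hoxc shares of 0.498%, 0.608% and 1.48%. Against the Bmp6-led endothelial cluster, 5 of 15 members were lower in every library and none was higher, where 7.17% and 11.5% of all genes were. The 5 were Hoxa9, Hoxa10, Hoxb3, Hoxb5 and Hoxb9. Hoxa9, which takes part in blood and endothelial progenitor biology, had ratios of 0.232 (0.0629 to 0.597), 0.37 (0.224 to 0.578) and 0.182 (0.0765 to 0.372). Hoxd3 was near equal, with ratios of 1.04, 1.01 and 1.29. The summed Hox level of the Tll1-led cluster was 494, 592 and 816 CPM. The Pkhd1l1-led cluster could be compared in the room air and smoke libraries, where 2 of 23 members, Hoxc4 and Hoxc5, were higher and none lower, and 10.0% and 8.04% of all genes were. Those 2 rest on few UMIs, with intervals of 0.967 to 3.82 and 1.0 to 3.38 for Hoxc4 and of 0.692 to 4.34 and 0.742 to 3.25 for Hoxc5. The summed Hox level of the Pkhd1l1-led cluster was 1226 and 966 CPM. The Dkk2-led endothelial cluster also held Ptprc, a leukocyte gene, at 697, 773 and 376 CPM. It had median doublet scores of 0.360 and 0.362, and of 0.130 in the aneurysm library, where doublet scoring did not work. Its summed Hox level was 491, 396 and 866 CPM, against 1025, 875 and 1085 CPM in the Bmp6-led cluster.

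Adipocyte-like nuclei had a code mainly of Hoxa and Hoxc genes. In the smoke and aneurysm libraries, Hoxa genes made up 45.7% and 48.7%, Hoxc genes 44.1% and 31.0% and Hoxb genes 8.69% and 18.6% of their Hox UMIs. Of 15 members compared with fibroblast-like nuclei, 7 were lower in both libraries and 1 was higher, where 21.5% and 20.3% of all genes were. The 7 were Hoxa3, Hoxa6, Hoxb3, Hoxb4, Hoxb5, Hoxb6 and Hoxc4. Hoxb6 had 8.25 and 18.7 CPM against 61.1 and 92.8 CPM. Hoxa7, which helps to pattern the thoracic vertebrae, was the 1 higher gene, with 40.0 and 16.6 CPM against 11.8 and 9.77 CPM. Of 8 members compared between the adipocyte clusters, Hoxa7 was also the only one higher in both libraries in the Ucp1-led cluster, which carries the brown fat gene Ucp1, than in the Car3-led cluster, where 13.1% of all genes were. Its ratios were 2.38 (1.29 to 4.67) and 2.07 (1.06 to 4.09). None of the 8 was lower, where 8.30% of all genes were.

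Macrophage-like nuclei held few Hox UMIs, and most came from 2 genes. Hoxb3 had 16.0, 12.9 and 21.9 CPM and Hoxb4, which promotes the expansion of blood stem cells when overexpressed, 16.1, 10.5 and 22.6 CPM. Together they were 74.0%, 73.9% and 59.4% of the Hox UMIs of macrophage-like nuclei, against 27.3%, 25.3% and 28.1% in endothelial-like nuclei. In smooth muscle-like nuclei the share was 8.94%, 10.5% and 19.5%, and in fibroblast-like nuclei 12.6%, 11.3% and 20.1%. The macrophage-like share was thus above that of each wall class in every library. The level of the other members was 11.3, 8.25 and 30.3 CPM in macrophage-like nuclei, against 716, 602 and 771 CPM in endothelial-like nuclei.

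Hoxb3 differed between 2 of the macrophage clusters in the room air and smoke libraries. The Cd5l-led cluster, named for a gene of tissue macrophages, had Hoxb3 at 22.9 CPM and 19.3 CPM, with lower bounds of 20.0 and 17.0. The Fgf13-led cluster had 11.3 CPM (9.28 to 13.7) and 9.08 CPM (7.76 to 10.5), below those bounds. In the aneurysm library, where these clusters held 81 and 134 nuclei, Hoxb3 rested on 5 and 3 UMIs. The Mmp12-led cluster lay between these clusters in both deeper libraries, with Hoxb3 at 14.4 and 12.5 CPM, and the F13a1-led cluster had 2 and 12 UMIs of it there. Hoxb4 had 22.1 and 15.5 CPM in the Cd5l-led, 15.9 and 10.5 CPM in the Mmp12-led and 10.6 and 7.42 CPM in the Fgf13-led cluster. The only members at 5 CPM or more in macrophage-like nuclei of every library were Hoxb3 and Hoxb4. In the room air and smoke libraries the same 2 genes passed this level in dendritic-like nuclei.

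**Figure D3:**
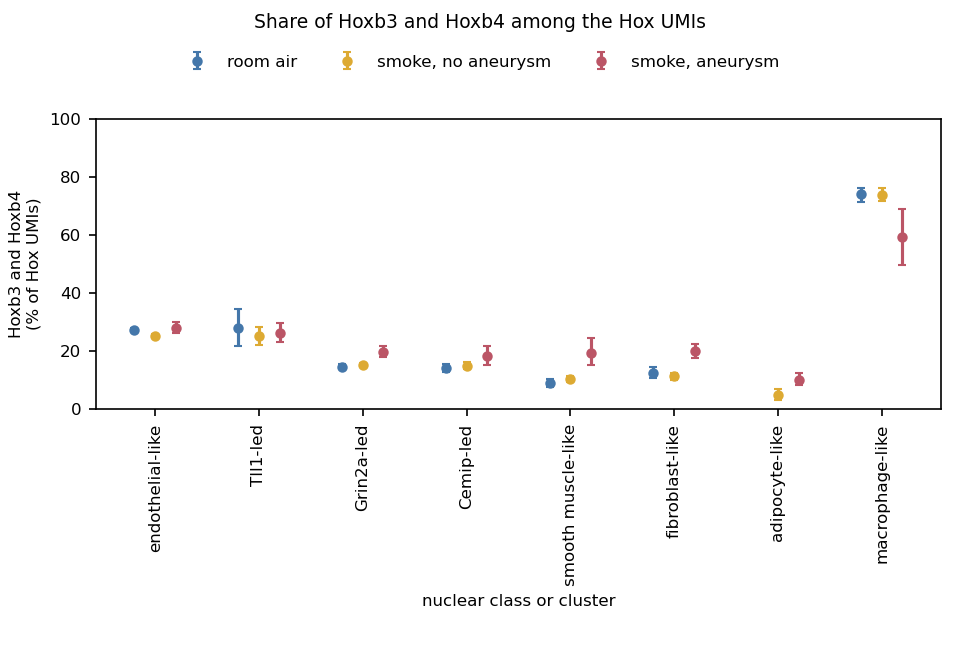
Share of Hoxb3 and Hoxb4 together among the Hox UMIs (percent) of each nuclear class or cluster, with a point for each library and bars for the exact 95% interval of counting error. Macrophage-like nuclei sit at 59.4% to 74.0%, above endothelial-like nuclei at 25.3% to 28.1% and all others shown.

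The smoke library was compared with the room air library to describe smoke exposure without aneurysm. Summed Hox levels were slightly lower in the smoke library, at 0.935 times the room air level (0.883 to 0.991) in smooth muscle-like nuclei. The fibroblast-like value was 0.896 times (0.838 to 0.957) and the endothelial-like value 0.819 times (0.801 to 0.837). Over all genes measured, the median log2 ratio was 0.07, 0.10 and 0.11 in these classes. Beside this, the 13 macrophage markers summed to 524, 606 and 564 CPM in these classes in the room air library and to 711, 1148 and 934 CPM in the smoke library, and none of the 13 was at 0 in the latter. Their part in the result was not tested.

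In the smooth muscle-like, fibroblast-like and endothelial-like classes few members differed by 1.5-fold between these libraries. Among 20 members of smooth muscle-like nuclei 3 were higher in the smoke library, where 15.6% of all genes were, and 2 were lower, where 5.83% were. The 3 were Hoxa2, with 2.23 and 6.29 CPM, Hoxa6, with 2.23 and 7.44 CPM, and Hoxa7, with 14.0 and 22.3 CPM. Hoxa2, a hindbrain and arch gene, and Hoxa6 rest on 4 UMIs each in the room air library, and only the intervals of Hoxa6, 1.16 to 13.1, and Hoxa7, 1.01 to 2.62, exclude 1. The ratio of Hoxa6, 3.33 here, turned to 0.887 with the libraries clustered one by one and to 0.956 at a marker margin of 0.25. That of Hoxa7, 1.60 here, ran from 1.11 with the libraries clustered one by one to 3.41 as a mean per nucleus. Hoxb2 had 6.7 and 3.72 CPM and Hoxd3 11.2 and 6.29 CPM, with intervals that include 1. In fibroblast-like nuclei 1 of 19 was higher, Hoxa6 with 2.6 and 4.6 CPM, and none was lower, where 16.5% and 5.32% of all genes were. In endothelial-like nuclei 3 of 27 were higher and none lower, where 15.1% and 3.19% were. These were Hoxc9, with 0.713 and 1.47 CPM, Hoxc10, with 0.324 and 1.07 CPM, and Hoxd9, with 0.454 and 0.763 CPM, all far below the levels of the other members. In these 3 classes the share of members past 1.5-fold was thus near or below that of all genes, apart from the 2 lower members of 20 in smooth muscle-like nuclei.

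Other nuclei had more members lower in the smoke library. In macrophage-like nuclei, where the summed level was 0.729 times that of room air (0.677 to 0.785), 6 of 15 members were lower and 1 higher, where 5.17% and 10.7% of all genes were. Among these 7 only the interval of Hoxb4, with 16.1 and 10.5 CPM, excludes 1. In the Cemip-led cluster, where the summed level was 0.762 times that of room air (0.725 to 0.80), 7 of 22 were lower and 1 higher, where 5.37% and 13.6% of all genes were. The 7 were Hoxa5, Hoxa9, Hoxa10, Hoxc5, Hoxc8, Hoxc10 and Hoxd3, and all their intervals but that of Hoxd3 exclude 1. Hoxc8 had 44.0 and 19.7 CPM in this cluster, a ratio of 0.448 (0.350 to 0.573).

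The aneurysm library was compared with the smoke library to describe aneurysm among smoke-exposed mice. Summed Hox levels were 0.991 times the smoke level (0.877 to 1.12) in smooth muscle-like nuclei. The fibroblast-like value was 1.23 times (1.15 to 1.32), the endothelial-like value 1.33 times (1.27 to 1.39) and the adipocyte-like value 1.05 times (0.950 to 1.17). The median log2 ratio of all genes was -0.07, 0.01, -0.05 and -0.07. The macrophage markers summed to 244, 329 and 179 CPM in the smooth muscle-like, fibroblast-like and endothelial-like nuclei of the aneurysm library, against 711, 1148 and 934 CPM in the smoke library, with 1 marker at 0 in the smooth muscle-like nuclei. Their part in the result was not tested.

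Fibroblast-like nuclei of the aneurysm library had a more anterior Hox make-up. Anterior members, paralog groups 1 to 3, summed to 184, 181 and 316 CPM. Central members, groups 4 to 8, summed to 481, 407 and 450.2 CPM. Posterior members, groups 9 to 13, summed to 43.1, 46.3 and 14.7 CPM. The aneurysm value thus stood above both others for the anterior and below both for the posterior members, and for both of these the room air and smoke intervals overlap. Against the smoke library, the anterior ratio was 1.74 (1.55 to 1.97) and the posterior ratio 0.317 (0.191 to 0.499), from 181 and 21 UMIs. The posterior sum of smooth muscle-like nuclei was 97.7, 107 and 81.3 CPM, a ratio of 0.758 (0.489 to 1.13) that was 0.469 without the nucleus richest in each gene. In endothelial-like nuclei it was 89.1, 84.5 and 95.2 CPM, a ratio of 1.13 (0.975 to 1.30). Whether the ratios of the classes differ could not be tested with 1 library per group. Their intervals do not overlap between fibroblast-like and endothelial-like nuclei.

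**Figure D4:**
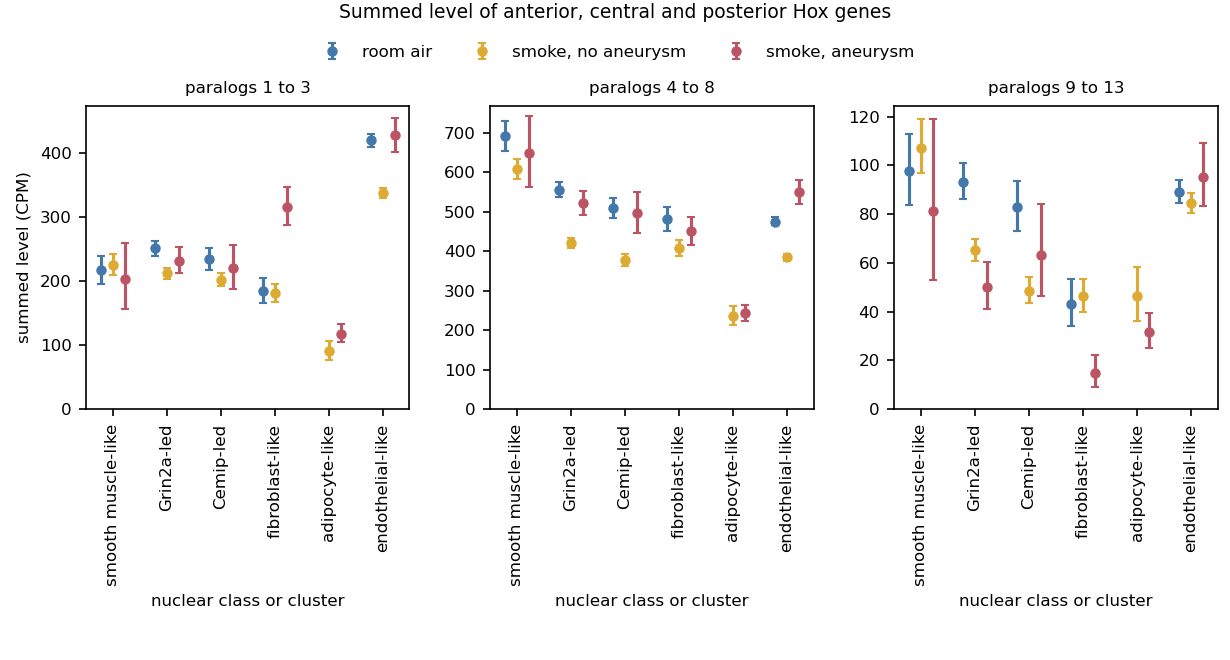
Summed CPM of the Hox genes of paralog groups 1 to 3, 4 to 8 and 9 to 13 in each nuclear class or cluster, with a point for each library and bars for the exact 95% interval of counting error. In fibroblast-like nuclei the aneurysm point is highest for groups 1 to 3, at 316 CPM, and lowest for groups 9 to 13, at 14.7 CPM.

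By gene, 8 of 17 members were at least 1.5-fold higher and 4 lower in the aneurysm than in the smoke library in fibroblast-like nuclei, where 14.8% and 20.0% of all genes were. The higher ones were Hoxa3, Hoxa4, Hoxa5, Hoxa6, Hoxb3, Hoxb4, Hoxb5 and Hoxb6, all of paralog groups 3 to 6. Hoxa5, which patterns the cervical and upper thoracic axis and the lung, had 34.3, 31.7 and 72.6 CPM, a ratio to smoke of 2.29 (1.75 to 3.0). Hoxb3 had 60.2, 47.6 and 103 CPM, a ratio of 2.17 (1.74 to 2.71). The lower ones were Hoxa9, Hoxb9, Hoxc5 and Hoxc9. Hoxa9 had 14.0, 17.1 and 4.89 CPM, a ratio of 0.285 (0.11 to 0.621). Hoxc9, a thoracic identity gene, had 13.5, 15.3 and 4.89 CPM, a ratio of 0.318 (0.123 to 0.697). Hoxc5 had 53.5, 49.9 and 21.6 CPM. Every aneurysm value of these genes lay outside the range of the other libraries, while the intervals of Hoxa4 and Hoxb9 include 1. Hoxa10 and Hoxc10 had no UMI in the aneurysm library, where 3 UMIs would be 2.09 CPM, against 3.32 CPM each in the smoke library.

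**Figure D5:**
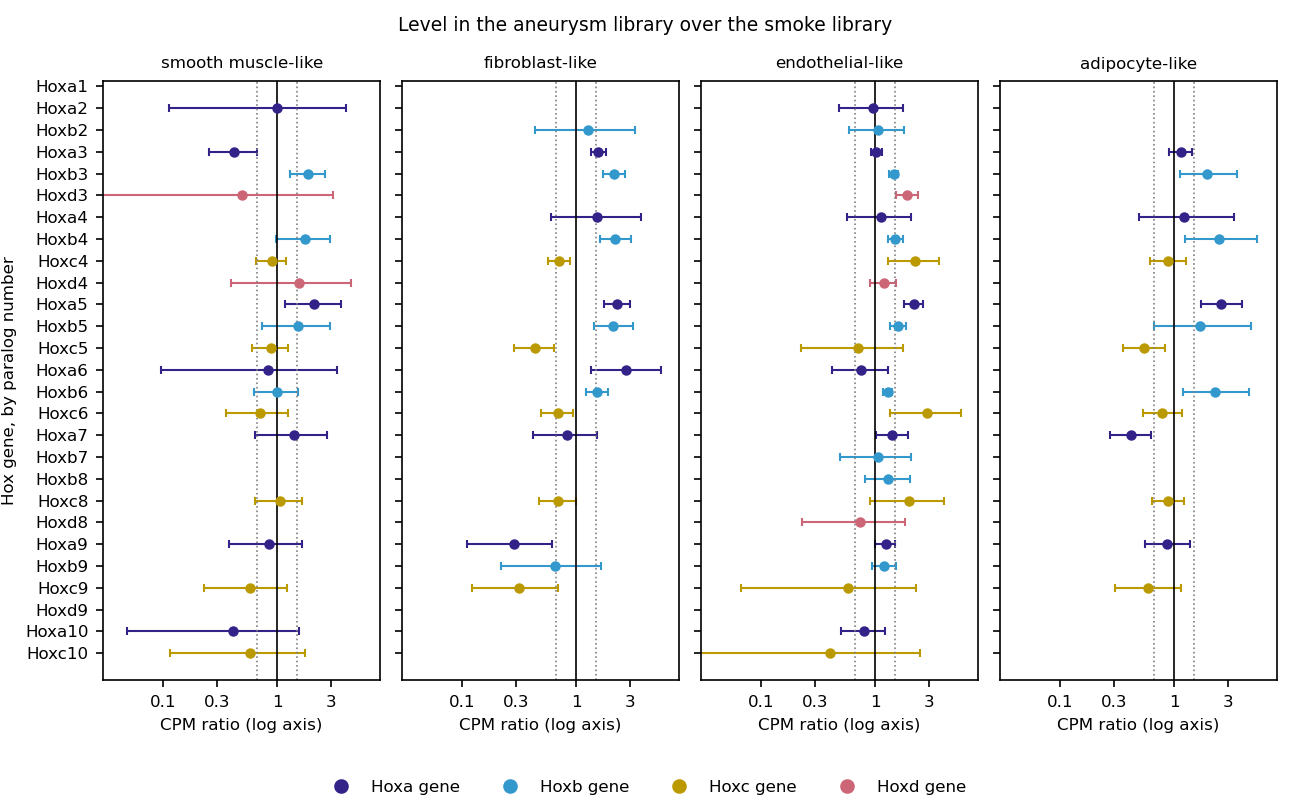
Ratio of CPM in the aneurysm library to CPM in the smoke library for each Hox gene with at least 20 UMIs in both together (log axis), ordered by paralog number, with bars for the 95% interval and dotted lines at 1.5-fold. In fibroblast-like nuclei Hoxa and Hoxb genes of groups 3 to 6 lie to the right of 1, and Hoxc genes and all genes of group 9 lie to the left.

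The class was not made up alike in the 3 libraries. At a finer resolution its C7-led sub-cluster held 445, 579 and 534 nuclei and its Sema3c-led sub-cluster 17, 27 and 184 nuclei. Within the C7-led sub-cluster the posterior sum was 41.9 CPM (32.9 to 52.5), 47.0 CPM (40.2 to 54.7) and 18.3 CPM (10.2 to 30.2). The aneurysm value of this sub-cluster rests on 15 UMIs. Its anterior sum was 175, 183 and 347 CPM. The part of the make-up of the class in the differences between libraries was not tested. The Sema3c-led nuclei of the aneurysm library had 8.57 CPM (2.78 to 20.0). The 7 mesothelial markers summed to 1.04, 4.35 and 30.7 CPM in fibroblast-like nuclei, with 6, 4 and 2 of them at 0, and their part in the result was not tested. Fibroblast-like nuclei were 4.29%, 4.66% and 12.8% of their libraries. The Grin2a-led cluster had posterior sums of 93.2, 65.2 and 50.1 CPM and the Cemip-led cluster 82.9, 48.6 and 63.4 CPM. Which stretch of aorta each library sampled cannot be told apart from the groups.

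Smooth muscle-like nuclei had 19 members to compare, of which 5 were higher and 5 lower in the aneurysm than in the smoke library, where 15.3% and 28.2% of all genes were. Hoxa5, with 31.8, 23.5 and 50.0 CPM, Hoxb3, with 67.6, 68.4 and 128 CPM, Hoxb4, Hoxb5 and Hoxd4 were higher. Hoxa3, which patterns the pharyngeal arches and their arteries, was lower, with 128, 140.5 and 59.4 CPM and a ratio of 0.423 (0.253 to 0.668). Hoxa10, Hoxc9, Hoxc10 and Hoxd3 were the other lower members and rest on 1 to 7 UMIs in the aneurysm library, with intervals that include 1. Among the 10, the intervals of Hoxa3, Hoxa5 and Hoxb3 exclude 1. In these nuclei the endothelial markers summed to 649, 672 and 447 CPM and the fibroblast markers to 525, 598 and 407 CPM. Their part in the result was not tested.

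In endothelial-like nuclei 7 of 25 members were higher and 2 lower in the aneurysm library, where 10.4% and 24.0% of all genes were. Hoxa5, whose human counterpart restrains blood vessel growth in endothelial cells, had 42.8, 29.7 and 64.9 CPM, a ratio of 2.18 (1.81 to 2.61). Hoxd3 had 26.8, 21.4 and 41.0 CPM, a ratio of 1.92 (1.52 to 2.4). Hoxb4 and Hoxb5 had ratios of 1.51 (1.31 to 1.75) and 1.58 (1.34 to 1.85). The other higher members, Hoxc4, Hoxc6 and Hoxc8, stayed below 10 CPM, and the lower ones, Hoxc9 and Hoxc10, rest on 2 and 1 UMIs in the aneurysm library. In the aneurysm library all of the higher genes stood above both other libraries.

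In adipocyte-like nuclei 5 of 14 members were higher and 3 lower in the aneurysm library, where 16.0% and 21.9% of all genes were. Hoxa5 had 19.7 and 50.3 CPM in the smoke and aneurysm libraries, a ratio of 2.56 (1.71 to 3.92). Hoxb3, Hoxb4, Hoxb5 and Hoxb6 were the other higher members, with ratios of 1.96, 2.5, 1.68 and 2.27. Hoxa7 was lower, with 40.0 and 16.6 CPM, and so were Hoxc5 and Hoxc9, with ratios of 0.544 and 0.592. The Ucp1-led cluster held 98 and 556 and the Car3-led cluster 85 and 675 of the nuclei. Hoxa5, Hoxb4 and Hoxb5 were thus at least 1.5-fold higher in the aneurysm than in the smoke library in all 4 of these classes. For none of these genes did this hold under every alternative processing. The ratio of Hoxa5 fell to 1.28 in smooth muscle-like nuclei and stayed at 2.02 or more in the other classes. In smooth muscle-like nuclei the intervals of Hoxb4 and Hoxb5, 0.985 to 2.94 and 0.739 to 2.91, include 1. After thinning Hoxb4 was at 0.851 there and Hoxb5 at 0.918 in adipocyte-like nuclei. All 4 classes come from the same pair of libraries. Macrophage-like nuclei, outside these classes, had a summed Hox ratio of 2.36 (1.92 to 2.87) between them. In macrophage-like nuclei the smooth muscle, fibroblast, endothelial and adipocyte markers summed to 44.7, 145, 129 and 637 CPM in the smoke library. The aneurysm sums were 111, 164, 162 and 560.4 CPM in the same order of lists. The part of RNA from other cells in these ratios was not tested.

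Meis genes, cofactors of Hox proteins, differed in level between the wall classes. Meis1 had 704, 757 and 466 CPM in smooth muscle-like nuclei, with 1107, 1017 and 526 CPM in the fibroblast-like and 96.7, 89.8 and 121 CPM in the endothelial-like class, where Meis2 had 1229, 1297 and 1405 CPM. Of 9 listed cofactors, 8 were measured between the aneurysm and smoke libraries in smooth muscle-like nuclei, where 3 were lower and none higher, Pbx2, Meis1 and Meis3, beside 28.2% lower and 15.3% higher over all genes. In fibroblast-like nuclei all 9 were measured, of which Pbx4, Meis1 and Pknox1 were lower and Pbx3 higher, beside 20.0% and 14.8%. In endothelial-like nuclei Pbx2, Pbx4 and Meis3 of 9 were higher and none was lower, beside 10.4% and 24.0%. With so few genes these counts are no result about the list. Between the smoke and room air libraries, Meis3 in smooth muscle-like nuclei was the only cofactor past 1.5-fold in these classes.

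Of 28 listed regulators of Hox expression, 20 were measured between the aneurysm and smoke libraries in fibroblast-like nuclei, and 4 were higher and 1 lower, a higher share near the 14.8% of all genes, of which 20.0% were lower. Aldh1a2, which makes retinoic acid, had 24.9, 34.3 and 96.3 CPM. Ezh2, the Polycomb methyltransferase, had 29.1, 25.3 and 51.0 CPM, and Bmi1 and Wdr5 were the other higher genes. Cyp26b1, which breaks down retinoic acid, was lower, with 1.56, 5.63 and 2.79 CPM. In endothelial-like nuclei 4 of 23 were higher and 2, Cbx2 and Cyp26b1, lower, where 10.4% and 24.0% of all genes were. Of 18 in smooth muscle-like nuclei, 7 were higher and 3 lower, where 15.3% and 28.2% were. Against the room air library, 1 of 19 regulators in the smooth muscle-like, 1 of 20 in the fibroblast-like and 0 of 24 in the endothelial-like class were higher in the smoke library, and 2, 1 and 2 were lower. Over all genes 15.6%, 16.5% and 15.1% were higher and 5.83%, 5.32% and 3.19% lower in these classes.

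Of 15 listed noncoding transcripts of the Hox clusters, 11 were in the count tables. Gm53, annotated between Hoxb13 and Hoxb9, had 12.3, 14.9 and 15.6 CPM in smooth muscle-like nuclei, with 12.5, 15.3 and 4.89 CPM in the fibroblast-like and 89.3, 85.9 and 94.8 CPM in the endothelial-like class. It thus had the class pattern of Hoxb9 and, in fibroblast-like nuclei, the library pattern of the posterior members. Hoxb3os had 12.5, 7.67 and 2.79 CPM in fibroblast-like nuclei. Hotair, of the Hoxc cluster, and Hottip, of the Hoxa cluster, were at no more than 0.858 CPM in the wall classes.

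Of 42 other listed transcription factors with regional expression, 14 were measured between the aneurysm and smoke libraries in fibroblast-like nuclei, with 3 higher and 4 lower. These counts are near the 14.8% and 20.0% of all genes. Tbx15, a gene of the trunk mesenchyme, had 2.6, 5.11 and 21.6 CPM and Tbx18, a gene of the epicardium and mesothelium, 17.7, 15.1 and 33.5 CPM. Gata4 was the third, with 3.64, 3.32 and 5.58 CPM. Osr1, Prrx2, Meox2 and Twist2 were lower, Osr1 with 70.1, 83.4 and 43.3 CPM and Prrx2 with 35.8, 42.2 and 23.7 CPM. In smooth muscle-like nuclei 3 of 11 were higher and 2 lower, among them Tbx2 with 6.7, 7.15 and 50.0 CPM, where 15.3% and 28.2% of all genes were. In endothelial-like nuclei 5 of 14 were higher and 1 lower, where 10.4% and 24.0% were. In the smoke library against room air, 4 of 11, 3 of 14 and 6 of 16 were higher in the smooth muscle-like, fibroblast-like and endothelial-like class in that order, where 15.6%, 16.5% and 15.1% of all genes were, and none was lower.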

How the data were processed

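Nuclear RNA of 3 abdominal aorta libraries was measured by droplet-based single-nucleus sequencing. The authors deposited unnormalised UMI counts for each barcode and gene. The matrices name cellranger 8.0.1 per the file headers, while Cell Ranger 2.2.0, STAR and mm10 are named per the submitters' processing notes; the conflict was not resolved. The sources used here do not give strand and intron handling.

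Barcodes with at least 500 UMIs, 300 genes and at most 5% mitochondrial UMIs were kept. Scrublet marked 367, 404 and 1 barcodes of the room air, smoke and aneurysm libraries, so it did not work in the last, and doublets were retained. Clustering used scanpy 1.11.5 with 10000 counts per nucleus, 2000 variable genes without Hox genes, 30 principal components, 20 neighbours and Leiden resolution 1. Classes needed a marker score of 0.5, a margin of 0.5 over the next class and at least 3 detected markers. A cluster also stayed unnamed if its leading genes held more markers of another list than of its own, or if it was shallow with none of its own. The Cemip-led cluster (smooth muscle 4.48, pericyte 2.44) and the Tll1-led cluster (endothelial 4.79, lymphatic endothelial 3.66) passed score and margin. Their leading genes held a marker of the second list, Notch3 and Reln, and none of the first. The margin was set after seeing the data, and unnamed clusters held 28.3%, 29.9% and 39.0% of nuclei.

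UMIs were summed per class and library and scaled to CPM. A difference was counted at 1.5-fold or more with at least 20 UMIs over both sums, in classes of at least 50 nuclei in each library. Intervals (scipy 1.17.1) are exact Poisson for CPM, Clopper-Pearson for shares and conditional binomial for ratios. They cover counting error only, since UMIs of 1 library carry no spread between animals. Genes of the fixed lists were named where they passed 1.5-fold, and the Hox members by their UMIs. The ratio calculations were tested on simulated counts with counting error only, for smoke over room air in endothelial-like nuclei. There 4.22% of unchanged genes passed 1.5-fold. The shallower aneurysm library was not simulated. The members and gene lists were chosen with earlier results of these data known, and Gm53 and the levels named among non-members were chosen after their values were seen. Alternatives changed the filters, doublet removal, clustering, depth and summation. Results for some genes of the lists are not reported here.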

Additional observations from a re-analysis of the deposited data

Results flagged for a closer look

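Several members moved in opposite directions in different classes between the same pair of libraries. None of these differences between classes was tested, since each group is 1 library, and the intervals cover counting error only.

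Between the aneurysm and smoke libraries, Hoxa3 had a ratio of 1.57 (1.36 to 1.83) in fibroblast-like and 0.423 (0.253 to 0.668) in smooth muscle-like nuclei. Against the room air library the ratios were 1.74 (1.45 to 2.09) and 0.463 (0.274 to 0.739). These intervals exclude 1 on opposite sides in both comparisons, which share the aneurysm library. The annotated span of Hoxa3 includes Hoxa4, Hoxa5 and Hoxa6, and Hoxa5 was higher in the aneurysm library in both classes.

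Hoxc4, Hoxc6 and Hoxc8 stood higher in endothelial-like and lower in fibroblast-like nuclei of the aneurysm library than of the room air library. Hoxc4 had ratios of 1.92 (1.12 to 3.16) and 0.637 (0.502 to 0.804). Hoxc6 had 2.55 (1.19 to 5.11) and 0.487 (0.345 to 0.677), and 0.590 (0.296 to 1.07) in smooth muscle-like nuclei. Hoxc8 had 2.64 (1.13 to 5.68) and 0.570 (0.381 to 0.837). The endothelial-like values rest on 21, 12 and 10 UMIs of the aneurysm library.

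Hoxd3 had ratios of 1.92 (1.52 to 2.4) to smoke and 1.53 (1.21 to 1.92) to room air in endothelial-like nuclei. In smooth muscle-like nuclei they were 0.497 (0.012 to 3.07) and 0.280 (0.00676 to 1.75), which rest on 1 UMI in the aneurysm library.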

How the results depend on the processing

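No paired analysis was possible because each group is 1 library. The posterior ratio of aneurysm to smoke in fibroblast-like nuclei was at most 0.397 under all 14 alternatives, and that of smooth muscle-like nuclei ran from 0.469 to 0.963. That of endothelial-like nuclei ran from 0.983 to 1.32 and that of adipocyte-like nuclei from 0.676 to 1.22. Counts of members at 5 CPM (16, 11 and 15) stayed within 1.5 times. Dropping the Dkk2-led cluster and a margin of 0.25 were chosen after seeing the data.

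The summed ratio of smoke to room air in smooth muscle-like nuclei (0.935) was 0.829 at 1000 UMIs, 0.846 at resolution 2, 0.804 with libraries clustered one by one and 0.816 at the margin of 0.25. That of aneurysm to smoke (0.991) was 1.18 with 15 components, 1.28 at resolution 2, 1.19 clustered one by one, 0.861 thinned and 0.835 without each gene's top nucleus. So its direction was not stable. Without the highest doublet scores the ratios were 0.971 and 1.13 in fibroblast-like and 0.850 and 1.23 in endothelial-like nuclei. Doublet scoring did not work in the aneurysm library, so this setting says little about doublets where that library enters, here and below. Without the Dkk2-led cluster the endothelial-like ratios were 0.854 and 1.21. The second was 1.42 with no filter, 1.42 with no mitochondrial limit and 1.49 thinned.

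The lowest ratio to macrophage-like nuclei fell in smooth muscle-like (12.5), fibroblast-like (10.5) and endothelial-like nuclei (14.4). It was 8.87, 8.33 and 11.8 at 1000 UMIs, 7.96, 6.45 and 9.21 with no filter, 9.72, 7.62 and 11.0 with no mitochondrial limit, and 9.94, 7.98 and 11.1 without the highest doublet scores. It was 9.07, 7.80 and 10.8 with 15 components, 9.32, 7.62 and 10.6 at resolution 0.5, and 7.76, 7.35 and 9.55 clustered one by one. For the first pair it was 8.32 and 8.24 thinned and 9.95 and 8.50 as a mean per nucleus.

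Some single genes turned direction. In smooth muscle-like nuclei, smoke over room air, Hoxa6 was 0.887 clustered one by one and 0.956 at the margin of 0.25. There, aneurysm over smoke, Hoxd3 was 1.05 at 1000 UMIs, 1.33 clustered one by one and 1.24 at the margin of 0.25, Hoxd4 0.911 without the top nucleus and 0.876 as a mean per nucleus, and thinned Hoxb4 0.851 and Hoxc10 1.42. Over room air, Hoxa7 was 0.962 clustered one by one, Hoxa10 1.07 with 15 components and 1.54 thinned, Hoxc6 1.54 thinned, and Hoxc10 3.07 thinned and 1.18 as a mean per nucleus. Aneurysm over smoke, Hoxa4 was 0.839 as a mean per nucleus in fibroblast-like nuclei, and Hoxc10 1.04 without the highest doublet scores and 1.94 thinned in endothelial-like nuclei. Thinned, Hoxd3 over room air was 0.925 in endothelial-like nuclei, and Hoxb5 0.918 and Hoxc9 1.33 over smoke in adipocyte-like nuclei. The cause was not tested. In the 130 smooth muscle-like nuclei of the aneurysm library 3 UMIs make 9.38 CPM.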

Other observations

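Beyond the classes compared above, neuron-like nuclei, with 69 in the aneurysm library and too few elsewhere to compare, had a summed Hox level of 408 CPM. In these nuclei 1 UMI makes 9.07 CPM, and Hoxc4, with 13, was the only member with 10 or more UMIs. The Adgre4-led cluster, which stayed unnamed, had Hoxb3 and Hoxb4 as its only members at 5 CPM or more in every library, as macrophage-like nuclei did. Its summed Hox level was 54.7, 42.8 and 142 CPM in the room air, smoke and aneurysm libraries, with 63 nuclei in the last.

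The share of posterior members among the Hox UMIs was 10.3%, 9.34% and 6.25% in the Grin2a-led cluster and 6.08%, 7.29% and 1.88% in fibroblast-like nuclei. In smooth muscle-like nuclei it was 9.72%, 11.4% and 8.72%, with overlapping intervals.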
